A study of Mus musculus with 8 samples.

Results

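The genes of the proteasome were followed in kidney RNA of mice given the small molecule BRD4780 or vehicle. Every gene whose symbol is Psm, then a letter from a to g, then a number was taken as a member, which gave 49 of the 21759 genes in the table. The 3 subunits of the immunoproteasome, Psmb8, Psmb9 and Psmb10, were set apart from the other 46. A filter on low counts left 48 members among 13474 tested genes, and the 1 member below it was Psmb11, the thymus form of a catalytic subunit. The symbol rule also took in Psmc3ip, which encodes a partner of meiotic recombination and no part of the proteasome. The libraries were 4 from mice that received BRD4780 at 50 mg/kg and 4 from mice that received saline as vehicle, each daily for 7 days. All 8 animals were male knock-in mice of the same model of MUC1 kidney disease, aged 8 months, so the controls carry the knock-in allele too and no untreated or wild-type group was compared. The allele itself is not described in the labels. RNA came from a sagittal section of kidney, and sample titles give the treated group as AGN50 where the treatment label gives BRD4780.

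The proteasome is the large protease that degrades proteins tagged with ubiquitin in the cytosol and nucleus. Its core particle, the 20S, is a barrel of alpha rings, which gate entry, around beta rings, which hold the cutting sites, and the 19S cap recognises, unfolds and feeds in substrates. Interferon gamma induces inducible beta subunits that replace the constitutive ones and form the immunoproteasome, which favours peptides suited to MHC class I molecules and is abundant in leukocytes. When proteasome activity falls, the transcription factor NRF1 (gene Nfe2l1) raises the constitutive subunit genes through antioxidant response elements in their promoters.

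Library totals ran from 5.74 to 28.2 M counts with BRD4780 and from 16.6 to 28.5 M with vehicle. BRD4780 replicate 3 stood apart from its group over all genes, with a chi-square per degree of freedom of 30.3 to 89.0 against the other treated libraries, whereas treated libraries 1, 2 and 4 differed from each other by 7.72 to 29.4 and vehicle libraries by 11.5 to 22.6. This statistic grows with depth, so pairs with treated replicate 4, at 5.74 M counts, tend to low values. Against that library, replicate 3 was at 30.3 and replicates 1 and 2 at 10.6 and 7.72. Counts of calls are given with and without BRD4780 replicate 3. Without it, 23.5% of all genes were called (12.1% higher and 11.3% lower), which is the background for every count given without it. All 10 tubule and glomerulus markers were detected in every library. The proximal tubule gene Lrp2 had 1423, 1528, 2334 and 1536 CPM in BRD4780 replicates 1 to 4, against 2013, 1805, 1931 and 2096 CPM with vehicle. Without BRD4780 replicate 3 Lrp2 was called lower (-0.39 ± 0.07 SE, adjusted p = 0.0051). Among the 10 markers, that replicate was the highest of 8 libraries for Lrp2, Slc34a1 and Slc5a2. It was the lowest for Slc12a1 and Aqp2. CPM are counts per M reads on totals scaled by TMM. The 12 endothelial markers had a summed level of 474 to 619 CPM with BRD4780 and 227 to 418 CPM with vehicle, and 4 of them rose, Flt1, Eng, Robo4 and Egfl7, with log2 fold changes of 0.71 to 0.94 and adjusted p of 0.023 to 0.033. Without BRD4780 replicate 3, 9 of the 12 rose, these 4 among them, while BRD4780 replicate 1, 2 or 4 or vehicle replicate 2 left out ended each of the 4 calls (adjusted p = 0.059 to 0.11). Of 13 alternative fits in all, the call held in 5 for Robo4, 6 for Egfl7 and 7 for Flt1 and Eng. Of the 10 kidney markers, the podocyte gene Nphs1 rose (2.03 ± 0.29 SE, adjusted p = 0.011, and 0.057 without vehicle replicate 2), and Umod, the thick ascending limb gene, had the next smallest p (-0.52 ± 0.16 SE, adjusted p = 0.097). Without BRD4780 replicate 3, 2 kidney markers rose and 3 fell. Their part in the results below was not tested. In whole-kidney RNA, fewer cells of a type and less RNA per cell cannot be told apart.

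None of the 48 tested proteasome genes passed the quasi-likelihood test of edgeR for BRD4780 against vehicle (threshold 0.05 on the adjusted p). Of all tested genes 2.92% did (2.30% higher and 0.623% lower). At that share few of 48 genes would pass, so a count of 0 does not set the members apart. The count of members was also 0 with DESeq2, which called 1361 of the 12939 genes that had an adjusted p. At an unadjusted p under 0.05, 1 member was higher (2.08%, against 13.9% of all genes) and 9 were lower (18.8%, against 10.7%). With DESeq2 these counts were 1 and 10. The fold change was negative for 33 members (68.8%, against 48.4% of all genes), and the median log2 fold change was -0.05, beside 0.01 over all genes. Scaled by library totals alone the members' median was 0.02 and that of all genes 0.08, so the distance between them was -0.06 under either scaling. The adjusted p of the members lay between 0.11 and 1.0.

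Replicates of a group lay close together for these genes. Within groups the standard deviation of log2 CPM had a median of 0.114 over members with BRD4780 and 0.0740 with vehicle, beside 0.199 and 0.137 over all genes. Proteasome genes were also abundant, with a median level of 103 CPM with BRD4780 and 115 CPM with vehicle, against 21.5 and 20.7 CPM over all tested genes. The 95% interval of the fold change lay within 1.5-fold in either direction for 44 of 48 members, as it did for 57.6% of all genes. The 4 exceptions were Psmb8, Psmb9, the assembly chaperone gene Psmg4 and Psma8, a testis form of an alpha subunit. Psma8 had 2 to 14 counts per library with BRD4780 and 7 to 16 with vehicle, and Psmb11 at most 4.00 and 4.63 counts. Psma8 had 0.124, 0.470, 0.263 and 0.335 CPM with BRD4780, against 0.574, 0.258, 0.548 and 0.431 CPM with vehicle, with overlapping groups (log2 fold change -0.59 ± 0.46 SE, adjusted p = 0.45). A count of 0 allows up to 3 counts in a library, and some libraries of both genes were at or under that floor.

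**Figure D1:**
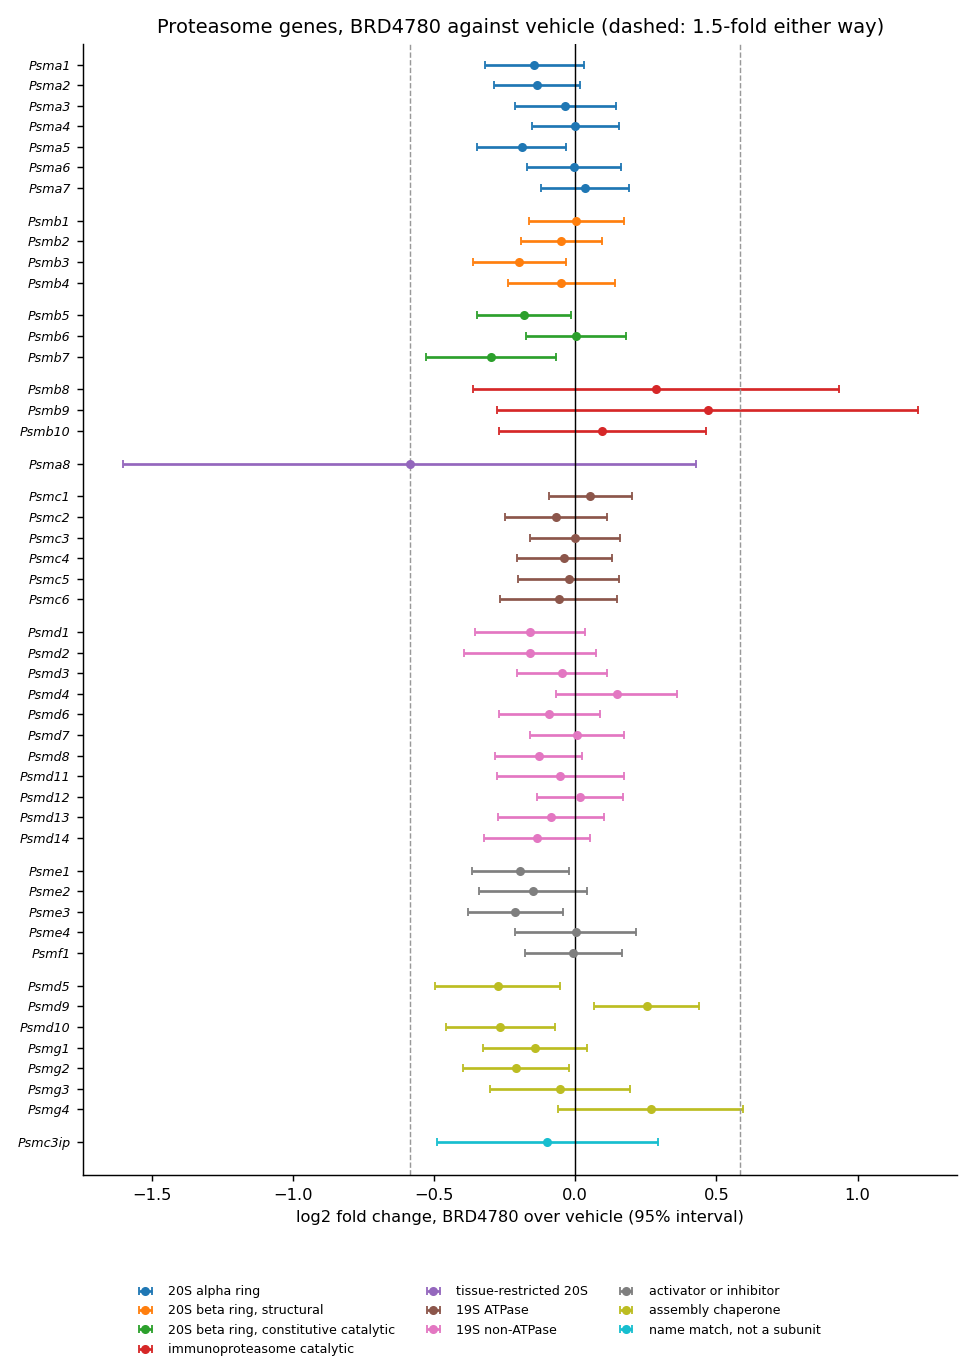
Log2 fold change of each tested proteasome gene, BRD4780 over vehicle, with its 95% interval from the quasi-likelihood fit (4 libraries per group), coloured and ordered by role, and dashed lines at 1.5-fold. The intervals of 44 of 48 genes lie between the dashed lines, and Psma8, Psmb9 and Psmb8 have the widest.

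Levels set per length of transcript followed the parts of the complex. The constitutive catalytic genes were the most abundant group, at 155 to 287 CPM per kb with BRD4780 and 191 to 287 with vehicle. The 7 alpha ring genes had a median of 90.8 CPM per kb with BRD4780 and 101 with vehicle, the 6 ATPase genes of the 19S 92.8 and 96.2, and the 11 other 19S genes 58.4 and 61.9. Assembly chaperones, which help build the particle and leave it, stood lower, at medians of 20.6 and 17.7. Each length is that of 1 annotated transcript, so differences between genes of a similar level are not to be read from this scale. The inducible subunit genes were far below their constitutive counterparts in all 8 libraries, with group means of 2.49 to 8.20 CPM per kb with BRD4780 and 1.82 to 7.75 with vehicle.

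**Figure D2:**
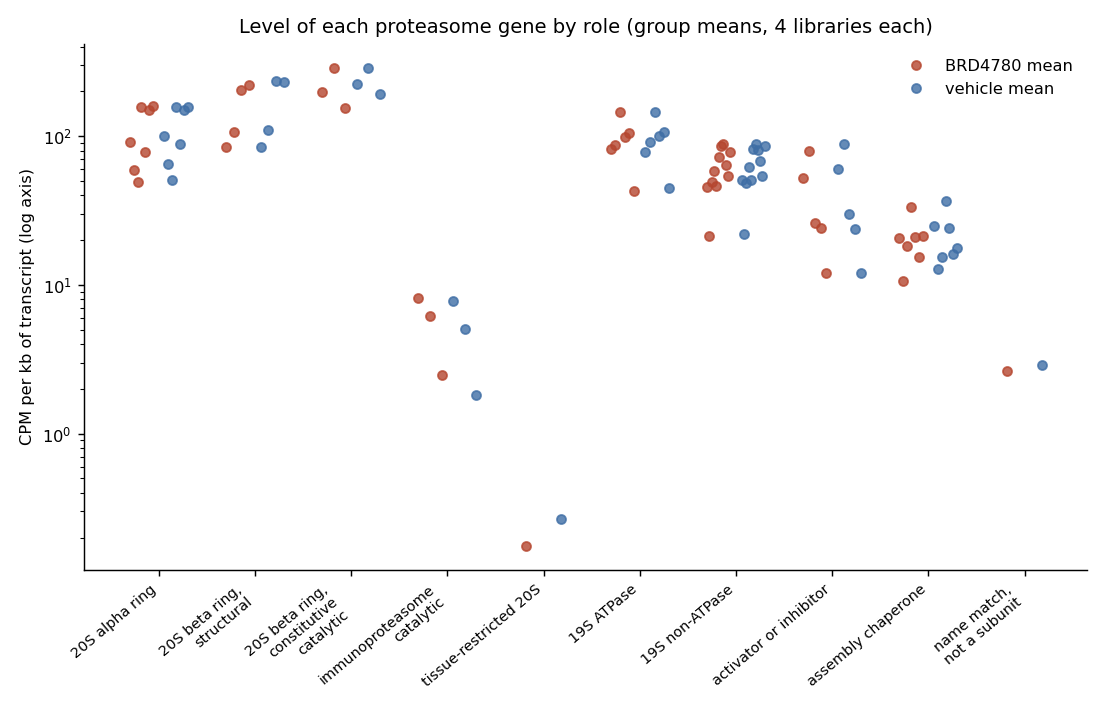
Mean level of each tested proteasome gene (CPM per kb of transcript, log axis) by role, BRD4780 left of vehicle, 4 libraries per group. The 3 immunoproteasome genes lie between 1.82 and 8.20 CPM per kb in both groups, and the constitutive catalytic genes between 155 and 287.

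Among the alpha ring genes, 0 of 7 passed the test and log2 fold changes ran from -0.19 to 0.04. Psma5, the alpha5 subunit, had the lowest, with 96.2 ± 5.2 CPM with BRD4780 and 109.8 ± 5.1 CPM with vehicle (SD, n = 4 per group), with a log2 fold change of -0.19 ± 0.07 (SE, adjusted p = 0.14). Psma7 (alpha4) had 147 ± 8.0 CPM with BRD4780 and 143 ± 5.3 CPM with vehicle (SD, n = 4 per group), the highest fold change of the ring. In the structural beta subunits, 0 of 4 passed. Psmb3 (beta3) had 167, 163, 153 and 145 CPM in BRD4780 replicates 1 to 4, against 175, 194, 176 and 175 CPM in vehicle replicates 1 to 4. The groups of Psmb3 did not overlap, yet its log2 fold change of -0.20 ± 0.08 (SE) had an adjusted p of 0.15. Psmb1 (beta6), Psmb2 (beta4) and Psmb4 (beta7) had log2 fold changes between -0.05 and 0.00.

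The catalytic subunits hold the cutting sites, and each constitutive gene has an inducible counterpart. Psmb5 encodes beta5, with the chymotrypsin-like activity. It had 179, 176, 185 and 170 CPM in BRD4780 replicates 1 to 4, against 202, 221, 193 and 189 CPM in vehicle replicates 1 to 4. Every treated library lay below every vehicle library, by a log2 fold change of -0.18 ± 0.08 (SE, adjusted p = 0.17). Psmb6 encodes beta1, with the caspase-like activity. It had 255, 227, 211 and 223 CPM with BRD4780, against 228, 243, 224 and 221 CPM with vehicle, a log2 fold change of 0.00 with a 95% interval of -0.17 to 0.18. Its groups overlapped over most of their range. Psmb7 encodes beta2, with the trypsin-like activity, and had the most negative fold change of the constitutive core. It had 182, 169, 215 and 155 CPM in BRD4780 replicates 1 to 4, against 225, 241, 210 and 211 CPM in vehicle replicates 1 to 4. Treated replicate 3 lay inside the vehicle range and the other treated libraries below it, with a log2 fold change of -0.30 ± 0.10 (SE, adjusted p = 0.12). Exons of Psmb7 overlap Nek6 on the opposite strand.

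The promoters of the catalytic genes were read for 3 motifs in RefSeq windows of GRCm38.p6, from 250 bases before to 50 after the start, which existed for 43 members. Matches were counted on both strands, and a match is a description of letters only. The core of the antioxidant response element, TGACNNNGC, was in the window of 6 of 43 members (14%, as in all 27025 genes with a window). It occurs before the start site of Psmb5 and Psmb6, which are shown, 10 bases of flank in lower case and the motif in capitals, to place it in the genes whose values are given above. Psmb7, the other constitutive catalytic gene, is not among the 6. For Psmb5 (chr14:54618024-54618052, minus strand) the match begins 47 bases before the start, and for Psmb6 (chr11:70525338-70525366, plus strand) 9 bases before it. The gamma-activated site, TTCNNNGAA, an element of genes that respond to interferon gamma, was in 3 of 43 member windows (6.98%, against 9.55% of all genes). Among the inducible subunit genes with a window, Psmb8 held it (chr17:34198088-34198116, plus strand), with the match 97 bases before the RefSeq start that sets the window. That start lies inside the longer Psmb8 gene of GENCODE whose coordinates are given with its values, so the match is within that gene. The interferon-stimulated response element, searched as GAAA, any 2 bases and GAAA again, was in 5 windows (11.6%, against 3.99%), those of Psmb3, Psmd4, Psmd9, Psme1 and Psmg4. The windows of Psmb9 and Psmb10 hold none of the 3 motifs.
Psmb5: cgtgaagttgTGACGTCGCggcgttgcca
Psmb6: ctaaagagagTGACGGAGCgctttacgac
Psmb8: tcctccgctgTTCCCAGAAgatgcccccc

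The inducible genes did not pass the test, and 1 library decided the direction of all 3. Psmb8 (beta5i, chr17:34197721-34201454, plus strand, GRCm38) had 7.08, 7.21, 17.4 and 8.37 CPM in BRD4780 replicates 1 to 4, against 9.91, 8.62, 5.97 and 8.54 CPM in vehicle replicates 1 to 4. Treated replicate 3 was the highest of the 8 and the other treated libraries lay inside the vehicle range. The log2 fold change was 0.29 ± 0.29 (SE, adjusted p = 0.57), and -0.16 ± 0.18 without that library. Psmb9 (beta1i, chr17:34181987-34187764, minus strand) had 2.69, 2.11, 6.16 and 2.51 CPM with BRD4780, against 2.66, 2.91, 1.89 and 2.42 CPM with vehicle. Again replicate 3 was the single high treated library, and the log2 fold change was 0.47 ± 0.34 (SE, adjusted p = 0.41), and -0.04 ± 0.23 without it. Psmb10 (beta2i, chr8:105935735-105938444, minus strand) had 10.6, 9.06, 14.3 and 9.04 CPM with BRD4780, against 10.6, 10.4, 11.1 and 8.58 CPM with vehicle. Its log2 fold change was 0.10 ± 0.17 (SE, adjusted p = 0.76), and -0.08 ± 0.14 without replicate 3. Outside that library its groups overlapped. These values rest on 463 counts of Psmb8, 164 of Psmb9 and 381 of Psmb10 in replicate 3, which had 27.8 M counts in all. Exons of Psmb8 and Psmb9 overlap genes on the opposite strand, Gm20496 and Tap1, and the sources used here do not give the strand setting of the counting.

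**Figure D3:**
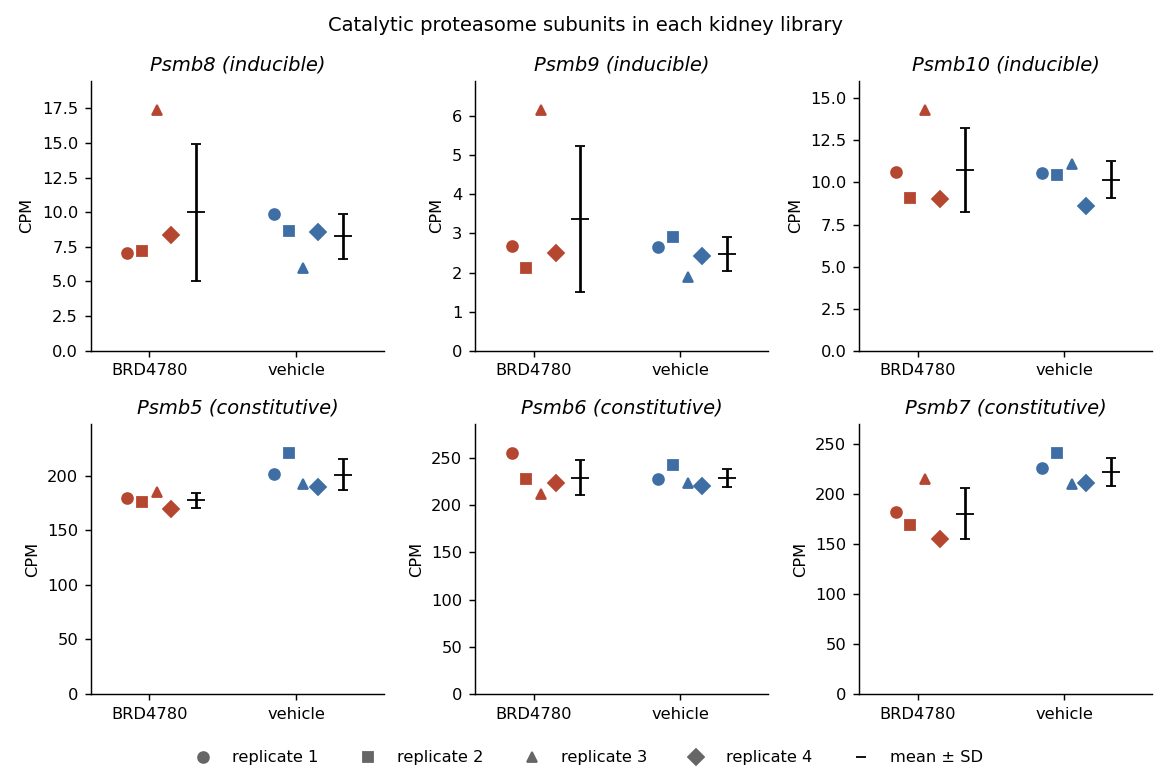
Level of the inducible (top) and constitutive (bottom) catalytic subunit genes in each library in CPM, BRD4780 left of vehicle, with the mean and SD of 4 libraries beside the points. BRD4780 replicate 3 (triangle) is the highest of 8 libraries for Psmb8, Psmb9 and Psmb10, at 17.4, 6.16 and 14.3 CPM.

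The balance within each pair was read as the inducible level in percent of the constitutive one, both per length. For Psmb8 against Psmb5 it was 2.17%, 2.27%, 5.18% and 2.72% in BRD4780 replicates 1 to 4, and 2.71%, 2.15%, 1.71% and 2.49% in vehicle replicates 1 to 4. The groups overlapped outside replicate 3. For Psmb9 against Psmb6 it was 0.622%, 0.549%, 1.72% and 0.663% with BRD4780, and 0.688%, 0.707%, 0.498% and 0.645% with vehicle, again overlapping outside replicate 3. For Psmb10 against Psmb7 it was 5.16%, 4.75%, 5.89% and 5.16% with BRD4780, and 4.14%, 3.83%, 4.66% and 3.60% with vehicle. Here every treated library lay above every vehicle library, with means of 5.24 ± 0.48% and 4.06 ± 0.46% (SD, n = 4 per group) and 5.02 ± 0.24% in the treated group without replicate 3. Psmb10 itself was at 10.7 ± 2.5 CPM with BRD4780 and 10.2 ± 1.1 CPM with vehicle, and Psmb7 at 180 ± 26 CPM with BRD4780 and 222 ± 14 CPM with vehicle (SD, n = 4 per group). No test was run on the ratios, since the genes were chosen with results of these data known.

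**Figure D4:**
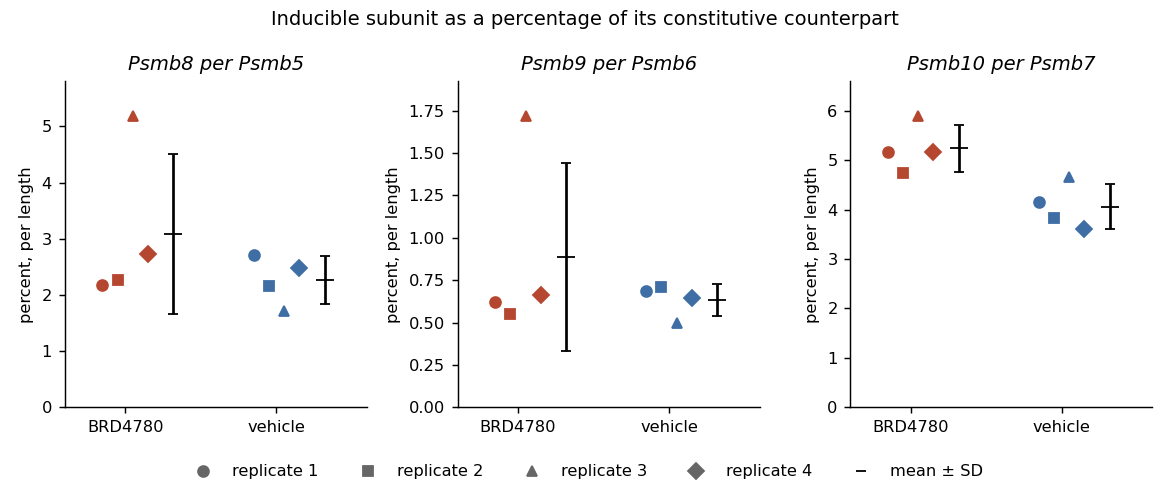
Level per length of each inducible subunit gene as a percentage of its constitutive counterpart in each library, BRD4780 left of vehicle, with mean and SD of 4 libraries. For Psmb10 per Psmb7 the treated libraries lie at 4.75% to 5.89% and the vehicle libraries at 3.60% to 4.66%, and in the other pairs only BRD4780 replicate 3 leaves the vehicle range upward by a wide margin.

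Genes that act with the immunoproteasome were read beside it. Psmb9 and Tap1, which encodes a peptide transporter of MHC class I loading, lie head to head on chromosome 17, with 225 bases between their RefSeq start sites, while their GENCODE exons overlap. Tap1 had 8.57, 7.58, 12.8 and 8.53 CPM with BRD4780, against 8.54, 7.29, 7.49 and 8.58 CPM with vehicle, and so was high in the same treated library as Psmb9. Of 9 genes of MHC class I presentation 0 passed the test, with a median log2 fold change of 0.16. Treated replicate 3 was the highest of all libraries in 7 of them. That library was highest in 5 of 31 constitutive genes of the core particle and cap and in 4 of 17 leukocyte markers. The share over all genes was not counted. Since replicate 3 stood apart over all genes, such counts cannot be called particular to a list. H2-K1, a class I heavy chain gene, had 332, 333, 430 and 359 CPM with BRD4780, against 286, 296, 296 and 287 CPM with vehicle. Its groups did not overlap, and its log2 fold change was 0.32 ± 0.09 (SE, adjusted p = 0.085). It was 0.23 and past the threshold without replicate 3 (adjusted p = 0.027). B2m, the light chain, had the next smallest p, at 305, 334, 462 and 335 CPM with BRD4780, against 327, 297, 312 and 299 CPM with vehicle. Treated replicates 2, 3 and 4 lay above the vehicle range, replicate 3 by far the most. The log2 fold change of B2m was 0.22 ± 0.12 (SE, adjusted p = 0.30), and 0.07 ± 0.07 without replicate 3. H2-K1 also passed with DESeq2 and with library totals alone (adjusted p = 0.031 in each).

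Of 15 genes of the interferon gamma pathway and its targets, 1 rose. Ifngr1, the ligand-binding chain of the interferon gamma receptor, had 29.5, 32.5, 28.4 and 37.8 CPM with BRD4780, against 23.4, 22.5, 19.7 and 23.5 CPM with vehicle (log2 fold change 0.51 ± 0.11 SE, adjusted p = 0.037). That call was lost when any 1 library other than treated replicate 3 was left out (adjusted p = 0.054 to 0.11). Treated replicate 3 was the highest library in 10 of the 15, beside 3 of the 10 kidney markers, again without a share over all genes. The interferon-induced GTPase gene Igtp had 7.53, 6.78, 28.0 and 6.69 CPM with BRD4780, against 13.4, 11.5, 11.5 and 12.8 CPM with vehicle, and its other treated libraries lay below the vehicle range. The log2 fold change of Igtp was 0.04 ± 0.42 (SE, adjusted p = 0.97), and -0.81 ± 0.12 without replicate 3 (adjusted p = 0.0021). Jak1, a kinase of the receptor, had the next smallest p after Ifngr1, at -0.17 ± 0.08 (SE, adjusted p = 0.24), and -0.24 ± 0.07 without replicate 3 (adjusted p = 0.028). Without that library 1 of the 15 genes rose, Ifngr1, and 4 fell, among them Igtp, Irgm1 and Jak1, and the median log2 fold change was -0.17, beside 0.03 with all libraries. Over all genes that fit called 12.1% higher and 11.3% lower. Exons of Igtp overlap another gene on the same strand.

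Leukocytes express the immunoproteasome, and 24 of 25 listed leukocyte markers were in the table. Their summed level was 874, 883, 1407 and 1015 CPM in BRD4780 replicates 1 to 4, against 1266, 1294, 1199 and 1300 CPM in vehicle replicates 1 to 4. Treated replicate 3 lay above every vehicle library and the other treated libraries below every one. This sum weighs abundant genes most, led by Cd74 and H2-Ab1, with vehicle means of 599 and 243 CPM. That order did not hold in the mean log2 level of the tested markers, where treated replicate 4 (-0.20) lay above vehicle replicate 3 (-0.32). Of 17 tested, 0 passed, with a median log2 fold change of -0.22. Without replicate 3, 4 of 18 fell, Csf1r, Cd74, H2-Ab1 and H2-Eb1, and 0 rose, with a median of -0.46. In that fit 11.3% of all genes were called lower and 12.1% higher. Csf1r, the macrophage growth factor receptor gene, was at -0.44 ± 0.14 (SE, adjusted p = 0.098) with all libraries, where DESeq2 called it lower (adjusted p = 0.042), and at -0.57 ± 0.12 without replicate 3 (adjusted p = 0.0088). H2-Ab1, an MHC class II gene, was at -0.39 ± 0.18 (SE, adjusted p = 0.20), and at -0.63 ± 0.09 without it (adjusted p = 0.0013). Exons of Csf1r overlap Hmgxb3 on the opposite strand. In that same comparison without replicate 3, Psmb8, Psmb9 and Psmb10 were not called (adjusted p = 0.57 to 0.93). The T and B cell markers Cd3e, Cd3g, Cd4, Cd8a and Ms4a1 and the killer cell marker Nkg7 did not pass the filter, with at most 28 counts in a treated and 18 in a vehicle library. Ms4a1 was at 0 in 1 library of each group, and no other marker was at 0 in any. The mean of the tested leukocyte genes, as log2 CPM relative to the vehicle mean, was 0.30 in treated replicate 3 and 0.58 in vehicle replicate 4, the highest of all libraries, whereas the immunoproteasome mean was 0.90 and -0.06 in those libraries. The part of leukocytes in the immunoproteasome values was not tested.

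**Figure D5:**
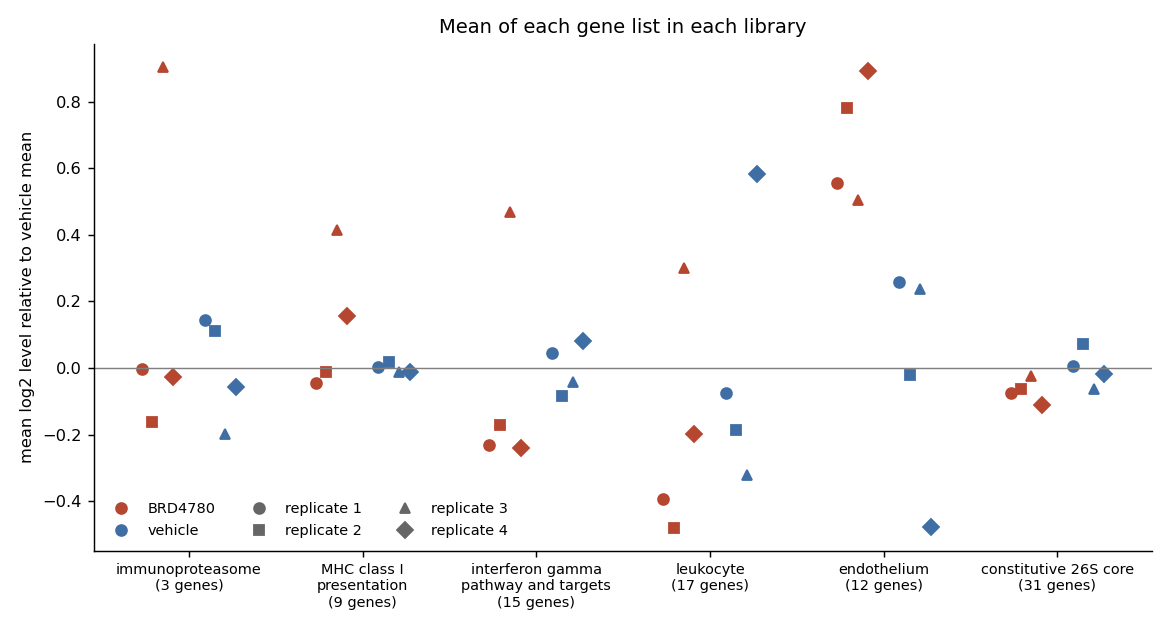
Mean log2 level of 6 gene lists in each library relative to the vehicle mean, BRD4780 left of vehicle, marker shape giving the replicate. In BRD4780 replicate 3 the immunoproteasome mean is 0.90, with 0.41 for MHC class I presentation and 0.47 for the interferon gamma list, while the 31 constitutive genes lie between -0.11 and 0.07 in every library.

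In the 19S cap the base is a ring of ATPases that unfold substrates. Of its 6 genes, Psmc1 to Psmc6, 0 passed, and their log2 fold changes lay between -0.07 and 0.05, the tightest role group. Psmc3 (Rpt5) had 237.1 ± 5.2 CPM with BRD4780 and 237.1 ± 14.0 CPM with vehicle (SD, n = 4 per group). Of the 11 other cap subunits 0 passed. Psmd14, the deubiquitinase Rpn11, had 71.2 ± 4.6 CPM with BRD4780 and 78.2 ± 6.8 CPM with vehicle (SD, n = 4 per group), with a log2 fold change of -0.14 ± 0.08 (SE). Psmd4, the ubiquitin receptor Rpn10, was the cap gene with the most positive value, at 179, 166, 137 and 141 CPM with BRD4780, against 133, 148, 144 and 139 CPM with vehicle. Treated replicates 1 and 2 were high and the other treated libraries fell on the vehicle range, with a log2 fold change of 0.15 ± 0.10 (SE, adjusted p = 0.36). Psmd2 (Rpn1) and Psmd1 (Rpn2), the large scaffolds, were both at -0.16.

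Activators open the core particle without ubiquitin. Psme1 and Psme2 encode the subunits of PA28, which interferon gamma also induces. Psme1 had 58.5, 57.3, 63.4 and 54.4 CPM with BRD4780, against 70.3, 70.9, 63.8 and 62.5 CPM with vehicle, so its treated libraries were low or at the lower edge of the vehicle range (log2 fold change -0.19 ± 0.08 SE, adjusted p = 0.16). Psme2 had 85.0, 72.8, 83.4 and 66.6 CPM with BRD4780, against 89.2, 83.7, 84.7 and 84.8 CPM with vehicle (-0.15 ± 0.09 SE, adjusted p = 0.31). In treated replicate 3 neither gene was above the vehicle range, where Psmb8, Psmb9 and Psmb10 were. Psme3, the nuclear PA28 gamma, had non-overlapping groups, at 65.5, 64.7, 77.5 and 68.3 CPM with BRD4780, against 81.4, 81.1, 78.9 and 78.0 CPM with vehicle (-0.21 ± 0.08 SE, adjusted p = 0.13). Psme4 (PA200) and Psmf1 (the inhibitor PI31) had log2 fold changes of 0.00 and -0.01.

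Assembly chaperones held the widest spread among well-counted members, with log2 fold changes from -0.28 to 0.27 over 7 genes, of which 0 passed. Psmd5, Psmd9 and Psmd10 encode chaperones of the 19S base, and they pointed in different directions. Psmd9 had 45.9, 51.0, 41.8 and 52.2 CPM with BRD4780, against 39.6, 41.1, 40.7 and 38.4 CPM with vehicle, the only member with every treated library above every vehicle library (0.25 ± 0.08 SE, adjusted p = 0.11). Psmd10 (gankyrin) had 30.3, 28.8, 32.8 and 26.1 CPM with BRD4780, against 37.2, 35.3, 36.9 and 33.1 CPM with vehicle, with every treated library below (-0.27 ± 0.09 SE, adjusted p = 0.11). Psmd5 had 41.4, 50.5, 53.1 and 40.5 CPM with BRD4780, against 56.0, 59.7, 57.3 and 52.6 CPM with vehicle, overlapping through replicate 3 (-0.28 ± 0.10 SE, adjusted p = 0.14). Psmg1 to Psmg4 encode chaperones of the core particle. Psmg4 had 12.7, 11.9, 9.61 and 13.4 CPM with BRD4780, against 11.2, 10.3, 9.87 and 7.89 CPM with vehicle (0.27 ± 0.15 SE, adjusted p = 0.28). Psmg2 was at -0.21 ± 0.08 (SE, adjusted p = 0.17).

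Over all members, groups that did not overlap were found once upward (2.08%, against 7.44% of all genes) and 4 times downward (8.33%, against 5.16%). The downward ones were Psmb3, Psmb5, Psme3 and Psmd10. Leaving out treated replicate 3 raised the calls to 1 member higher, Psmd9, and 6 lower, Psmb7, Psmd5, Psmd10, Psme3, Psma5 and Psme1. These 7 are 14.6% of members, while 23.5% of all genes were called in that fit (12.1% higher and 11.3% lower). The most negative of them was Psmb7, at -0.40 ± 0.08 (SE, adjusted p = 0.0072).

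Genes that control or serve the proteasome were read from lists. Of 8 partner genes found without a Psm name, such as the ubiquitin receptor gene Adrm1, the deubiquitinase gene Usp14 and the assembly factor gene Pomp, 0 passed and the median log2 fold change was 0.05. Zfand5, whose product stimulates the proteasome, had the smallest p, with 75.6, 75.2, 56.5 and 89.0 CPM with BRD4780, against 57.9, 57.6, 65.8 and 59.2 CPM with vehicle (0.29 ± 0.12 SE, adjusted p = 0.17). Treated replicate 3 was the lowest of all libraries and the other treated ones the highest, and without it Zfand5 passed (0.40 ± 0.09 SE, adjusted p = 0.0085), the only partner gene to do so. Pomp had the next smallest p (-0.16 ± 0.08 SE, adjusted p = 0.24). Of 8 regulator genes 0 passed, with a median of -0.03. Nfe2l1 had 171 ± 21 CPM with BRD4780 and 167 ± 18 CPM with vehicle (SD, n = 4 per group), with a log2 fold change of 0.04 ± 0.11 (SE). Ddi2, the protease gene that frees NRF1, had 13.0, 8.35, 23.7 and 9.71 CPM with BRD4780, against 23.7, 20.04, 29.0 and 20.8 CPM with vehicle. Treated replicate 3 lay in the vehicle range and the others below it (-0.74 ± 0.28 SE, adjusted p = 0.15, and -1.17 ± 0.18 without replicate 3, adjusted p = 0.0020), and Ddi2 shares exon sequence with Rsc1a1 on the same strand. Maff, a small MAF gene whose product pairs with NRF factors, had 8.73, 9.80, 2.74 and 8.53 CPM with BRD4780, against 2.05, 3.90, 3.90 and 2.5 CPM with vehicle (1.27 ± 0.38 SE, adjusted p = 0.087), with replicate 3 the only treated library inside the vehicle range. Maff passed without that library (1.56 ± 0.23 SE, adjusted p = 0.0017) and with DESeq2 on all (adjusted p = 0.014). Of the regulator genes, 2 rose and 2 fell without replicate 3, Maff and Ddi2 among them. Nfe2l2, which encodes NRF2, was at -0.22 ± 0.07 (SE, adjusted p = 0.11). Of 13 ubiquitin and shuttle factor genes 0 passed, with a median of -0.04. Those with the smallest p were Uba1, the main ubiquitin-activating enzyme gene, at -0.25 ± 0.09 (SE, adjusted p = 0.14), and Rps27a, a ubiquitin fusion gene, at 0.28 ± 0.12 (SE, adjusted p = 0.18). Without replicate 3, 1 of the 13 rose, Rps27a (0.39 ± 0.08 SE, adjusted p = 0.0054), and 3 fell, among them Uba1 (-0.33 ± 0.07 SE, adjusted p = 0.0082). The shares over all genes without that library were 12.1% higher and 11.3% lower.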

How the data were processed

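Kidney mRNA of 8 mice was sequenced after oligo-dT selection with a stranded kit, per the labels' protocols. The deposited values are expected counts per gene, not normalized. The submitters' processing notes name STAR 2.5.2b, RSEM 1.3.0, Picard and the builds mm10 and hg19, with no role for either. The sources used here do not give annotation, filters or strand setting. RSEM shares reads among similar genes, and 15.1% to 28.9% of a library's values were not whole. A column of 1 further sample was not used.

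Lines of 1 symbol with identical values were collapsed, which concerned 343 symbols. Counts were rounded, filtered with filterByExpr (minimum count 10), scaled by TMM and tested with edgeR 4.0.16 in R 4.3.3 (quasi-likelihood F-test, 4 BRD4780 against 4 vehicle libraries, no covariate). P-values were adjusted by Benjamini-Hochberg over 13474 genes, with a threshold of 0.05. DESeq2 1.42.0, other scalings, no filter and leaving out each library were alternatives. Standard errors were derived from the fold change and its F statistic, and intervals are 95%. Values relative to the vehicle mean use log2 of CPM + 0.5. Coordinates and lengths come from GENCODE M21 (GRCm38), in which exons of 12 members overlap a gene on the opposite strand and those of 3 on the same strand. Promoters come from RefSeq. Floors cover counting error only.

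On simulated counts for this comparison (13366 genes tested), the test called 14% of 50 genes changed 1.25-fold, 52% of 50 changed 1.5-fold, 98% of 50 changed 2-fold and 100% of 50 changed 4-fold, with 9 false calls among 141.

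Members and lists were chosen with earlier results of these data known. The named genes are members, with values per library for the catalytic pairs, Psme1, Psme2 and the 3 largest fold changes either way, and, of each list, genes past the threshold and the 2 with the smallest p. Other members, and Tap1, Igtp, Irgm1, Nfe2l1, Ddi2, Adrm1, Usp14, Cd74, H2-Eb1 and the untested leukocyte markers, were named after their values were seen. So were the kidney markers Lrp2, Slc34a1, Slc5a2, Slc12a1 and Aqp2. Replicate numbers follow the order of deposition and pair nothing. Sample titles also hold a number that 2 animals of each group share, and the labels do not say what it marks. The design text gives 4 mice per arm.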

Additional observations from a re-analysis of the deposited data

Results flagged for a closer look

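Values of 1 library far from the rest of its group were looked for in the 48 tested members and 4 ratios, 104 groups of 4 in all. Chance flags about 1 in 20 groups, and 9 were flagged, 5 of them with BRD4780 replicate 3 apart. The ratios reuse the values of the members, so the groups are not independent. The 9 are therefore not to be read as an excess over that rate. In BRD4780 replicate 3, Psmb8 was at 17.4 CPM against 7.08 to 8.37 CPM in the other treated libraries, and Psmb9 at 6.16 CPM against 2.11 to 2.69 CPM. The ratio of Psmb9 to Psmb6 was 1.72% there against 0.549% to 0.663%. The 3 inducible genes summed over the 3 constitutive ones, per length, came to 3.98% in that library against 2.06% to 2.31%. Psmd2 was at 254 CPM in it, against 200.0 to 208 CPM.

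The others were single values. Psma3 was at 129 CPM in BRD4780 replicate 1, against 143 to 145 CPM in the other treated libraries. Psmb3 was at 194 CPM in vehicle replicate 2, against 175 to 176 CPM in the other vehicle libraries, and Psmc2 at 157 CPM in vehicle replicate 3, against 165 to 166 CPM. The summed ratio was 2.29% in vehicle replicate 1, against 1.998% to 2.03%.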

How the results depend on the processing

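No member was called with RLE size factors, with library totals alone, without the filter, with DESeq2 or when any library other than BRD4780 replicate 3 was left out. Over leaving out each library, members higher ranged from 0 to 1, members lower from 0 to 6, the members' median log2 fold change from -0.0959 to -0.0385 and the number of all genes called from 31 (without vehicle replicate 2) to 3184. The highest counts and the lowest median came without BRD4780 replicate 3, and leaving out any other library gave 31 to 233 genes, against 394 with all. The members' median was 0.0151 with library totals alone, and all genes called were 1361 with DESeq2. The directions of Psmb8, Psmb9 and Psmb10 changed without BRD4780 replicate 3, short of the threshold either way. The difference in mean log2 ratio of Psmb10 to Psmb7 was 0.37 and ranged from 0.31 to 0.44 over leaving out each library. The cause of these shifts was not tested. Depth limits Psma8, Psmb11 and the lymphocyte markers most, and BRD4780 replicate 4, at 5.74 M counts, had 50 counts of Psmb8 and 15 of Psmb9. Sample titles pair BRD4780 replicate 1 with vehicle replicate 2, and BRD4780 replicate 2 with vehicle replicate 4, by a number of unstated meaning. Their deviations from the group means correlated at -0.06 and -0.33 over all genes. A replicate block on that number was added after seeing the data. It was fitted only in these 4 libraries, so BRD4780 replicate 3 was not in it, and it left 1 residual degree of freedom. This fit called 0 members higher, 0 lower and 147 of all genes, with a members' median of -0.11. Under this block Ifngr1, Flt1, Eng, Robo4 and Egfl7 were not called (adjusted p = 0.0501 to 0.21).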
